A study of Mus musculus with 37 samples.

Results

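The deep cervical node was compared with the node labelled super cervical, both from the neck of the same kind of mouse, with 3 libraries each out of 37 in the series. The libraries were assigned to the nodes by their titles, while this comparison and its gene lists were picked with earlier results of these data known, and the test ran over all genes of the deposited table. The labels do not say more about which node "super" stands for. Both groups had the same genotype, CD169 Cre KI/KI with the Rpl22HA allele homozygous, so that the Cre and the tag were shared by all 6 libraries and no untagged control node entered the comparison. Age, sex and any treatment other than the cross were not given, nor was it said whether the 3 libraries of a node came from separate animals, so that p-values measure the spread between these libraries, which may be technical in part.

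RiboTag is a way to collect the mRNA that is being translated in one kind of cell. Cells that express Cre make the ribosomal protein Rpl22 with a haemagglutinin tag, and their ribosomes, with the mRNA they carry, are then captured by an antibody to that tag. With Cre at the CD169 (Siglec1) locus the tag is meant for the macrophages of the lymph node sinuses, which take up particles from lymph, although pull-downs of this kind are known to carry some RNA of other cells too. In the neck, lymph nodes lie against salivary glands, thyroid, parathyroid, muscle and fat. Transcripts typical of those neighbours were therefore kept in lists of their own, apart from genes of immune cells and of the node's own stroma.

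The 6 libraries differed in depth. Deep cervical replicates 1, 2 and 3 held 2854863, 4847523 and 15808815 counts, and the super cervical ones 1283757, 3520593 and 9067640, so that 3 counts corresponded to between 0.19 and 2.34 CPM (counts per 1000000 counts of the library). The share of counts on features with ribosomal sequence (Lars2, Gm19220 and Rn18s-rs5) was 3.37% to 10.5% in deep cervical and 7.91% to 27.3% in super cervical libraries. The factors by which library totals were adjusted (TMM) were 0.994 to 1.4 in deep cervical and 0.616 to 1.14 in super cervical libraries, and their part in the results was not tested except by the other scalings named below. Siglec1 itself had 1, 1 and 8 counts in the deep cervical and 3, 0 and 2 in the super cervical libraries, too few to be tested. Rpl22, the tagged ribosomal protein, stood at 97.7, 116 and 130 CPM in deep cervical and at 153, 157 and 187 CPM in super cervical libraries. Its log2 fold change, deep over super, was -0.54 ± 0.30 (SE, adjusted p = 0.226). The labelled cell type, CD169 macrophages, could thus not be checked on Siglec1, and Adgre1 (F4/80) was also too low to test, with 2, 10 and 105 counts against 0, 3 and 12. Marco and C1qa, both made by sinus macrophages, were high in all 6 libraries. Other members of the macrophage list were low, such as Cd68, given below, and Vsig4 with 2, 0 and 8 counts against 0, 0 and 0. The identity of the captured cells was not settled by these genes.

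Of 13440 genes tested with edgeR's quasi-likelihood test, 2557 differed at a Benjamini-Hochberg adjusted p under 0.05, which is 19%. In deep cervical libraries 1447 genes were higher (10.8% of those tested) and in super cervical libraries 1110 (8.26%). Of the genes of neighbouring tissues, whose lists were picked knowing that such transcripts differed here, 91 of 134 tested were called (67.9%), so that the excess is no independent evidence. Of the 91, 83 were higher in deep and 8 in super cervical libraries. The median log2 fold change over the 134 was 3.5, against 0.07 over all genes. Immune and stroma genes were called 67 times among 273 tested (24.5%), with 23 higher in deep and 44 higher in super cervical libraries and a median of -0.35. Of the 243 neighbouring-tissue genes listed, 109 were absent from the table or too low to test, and the counts do not speak for those. The total depended on single libraries, with 4679, 605 and 1144 genes called when deep cervical replicate 1, 2 or 3 was left out and 1062 and 544 when super cervical replicate 1 or 2 was. Neighbouring-tissue calls stayed between 65 and 100 in all 6 such fits, while immune and stroma calls were 26, 41 and 28 without deep cervical replicate 2, super cervical replicate 1 and super cervical replicate 2.

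**Figure D1:**
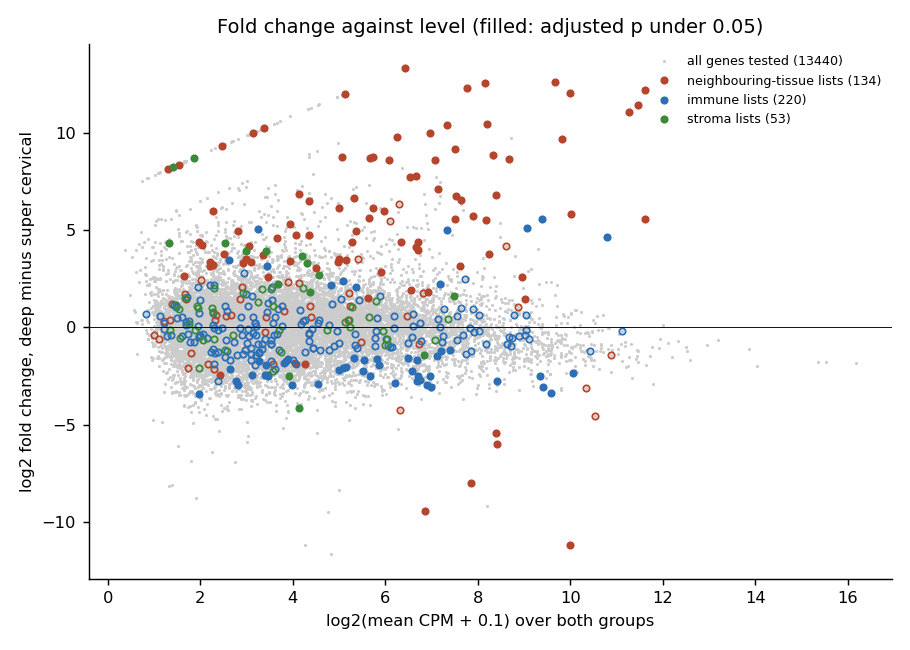
Log2 fold change, deep minus super cervical, against log2 of the mean CPM plus 0.1 over both groups for the 13440 genes tested, with neighbouring-tissue, immune and stroma genes in colour and filled where the adjusted p was under 0.05. Red points spread up to 13.3 in deep and down to -11.2 toward super cervical libraries, while most blue points lie between -4 and 4, and the straight row of points at the upper left holds genes without a count in super cervical libraries, whose fitted values depend on a small added count.

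Most tested genes of the thyroid follicle were higher in deep cervical libraries, where the list summed to 2239 to 14870 CPM of the plain total, against 22.02 to 33.05 in super cervical ones. Of 14 listed, 9 could be tested, 7 of them rose in deep cervical libraries and 2, Pax8 and Hhex, did not pass. In bulk samples such as these, more cells of a type and more RNA per cell cannot be told apart. Foxe1, a forkhead factor needed for thyroid formation, stood at 350, 542 and 410 CPM in deep cervical libraries and at 0, 0 and 0.0979 CPM in super cervical ones. All 3 deep cervical libraries were high and near each other, and the super cervical side rested on a single count. Pooled over libraries the ratio was 5969.5, with a 95% counting interval of 1071 to 235800, and edgeR's adjusted p was 0.000201. Tg, the thyroglobulin that carries thyroid hormone, reached 1570, 3459 and 9864 CPM against 0, 4.86 and 1.27 CPM. The groups lay far apart, and deep cervical replicate 3 held several times the Tg of replicate 1. Its log2 fold change was 11.06 ± 1.24 (adjusted p = 0.00133). Nkx2-1, a homeobox factor of thyroid and lung, was at 128, 259 and 215 CPM against 2.55, 0.347 and 0.881 CPM, again with no overlap (7.78 ± 0.63, adjusted p = 0.000694). Iyd, which recycles iodide, was at 72.5, 135 and 111 CPM in deep cervical libraries, and Dio1, an enzyme that activates thyroid hormone, at 81.4, 88.8 and 71.2 CPM, both above every super cervical library. Over 16 libraries of 6 other sites, Foxe1 did not exceed 2.2 CPM and Tg did not exceed 34.2 CPM.

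Genes of thyroid C cells, the calcitonin-making cells between the follicles, behaved in the same direction, with 6 of 8 tested higher in deep cervical libraries and 2, Scg3 and Pcsk1, not called. Calca, which encodes calcitonin, reached 5036, 7322 and 6441 CPM in deep cervical libraries and 0, 3.47 and 0.294 CPM in super cervical ones. The deep cervical values differed by less than their distance to the super cervical values by a wide margin (12.21 ± 1.16, adjusted p = 0.000786). Chga, the granule protein chromogranin A, stood at 2321, 4952 and 9681 CPM against 3.83, 2.08 and 1.37 CPM (11.44 ± 0.94, adjusted p = 0.000694). Chga had been picked as a parathyroid marker too and is counted here only. It was highest in deep cervical replicate 3, as was Pth, given below, and unlike Calca. Which cells carried Chga was not tested. Scg2, another granule protein, had 5056 counts in deep cervical and 0 in super cervical libraries, at least 766-fold more when 3 counts are taken as the limit for the group. Chgb, chromogranin B, also had no count in super cervical libraries, at least 80.7-fold less than in deep cervical ones, and Pcsk2, a prohormone convertase, rose by 4.58 ± 0.60 (adjusted p = 0.00244). With the 3 genes absent from super cervical libraries set to those limits, the list's median log2 fold change was 6.0, and 9.68 as fitted. Of the parathyroid list, 3 of 6 tested genes rose. Pth, parathyroid hormone, was at 188, 646 and 5318 CPM in deep cervical libraries and at 1.28, 1.04 and 0.0979 CPM in super cervical ones. Deep cervical replicate 3 stood well above the other two, and the groups did not overlap (12.02 ± 1.77, adjusted p = 0.00427, and 0.0637 with no filter on low counts). Gcm2, the transcription factor that specifies the parathyroid, was at 3.55, 5.72 and 12.8 CPM against 0, 0.347 and 0.392 CPM (4.39 ± 0.85, adjusted p = 0.012). Leaving out super cervical replicate 2 ended the call of Gcm2, at adjusted p 0.0594, and left 1 call in the list.

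Of the called C cell genes whose promoter holds the letters CAGCTG, Calca had the largest fold change, and its promoter is shown for that reason. The match in it was thus fixed by the choice. The sequence is that of RefSeq on build GRCm38.p6, chr7:114636308-114636607, minus strand, from 250 bases before to 50 after the annotated start, read 5′ to 3′ along the gene. Capitals mark CAGCTG, an E-box, the site family of basic helix-loop-helix factors, which include the muscle factors of the MyoD family. CAGCTG equals its own reverse complement, so that a match counts for both strands.
Calca: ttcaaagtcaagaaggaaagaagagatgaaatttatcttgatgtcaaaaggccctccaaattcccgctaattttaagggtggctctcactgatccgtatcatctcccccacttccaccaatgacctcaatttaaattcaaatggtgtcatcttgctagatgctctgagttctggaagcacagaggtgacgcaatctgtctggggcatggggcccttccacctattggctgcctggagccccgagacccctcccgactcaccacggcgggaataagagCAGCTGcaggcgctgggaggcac
Of the 6 C cell genes called, 5 had a promoter in the table and 4 of these held CAGCTG, against 5355 of all 32851 promoters of that length (16.3%). A match is a description of the letters and not a bound site.

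**Figure D2:**
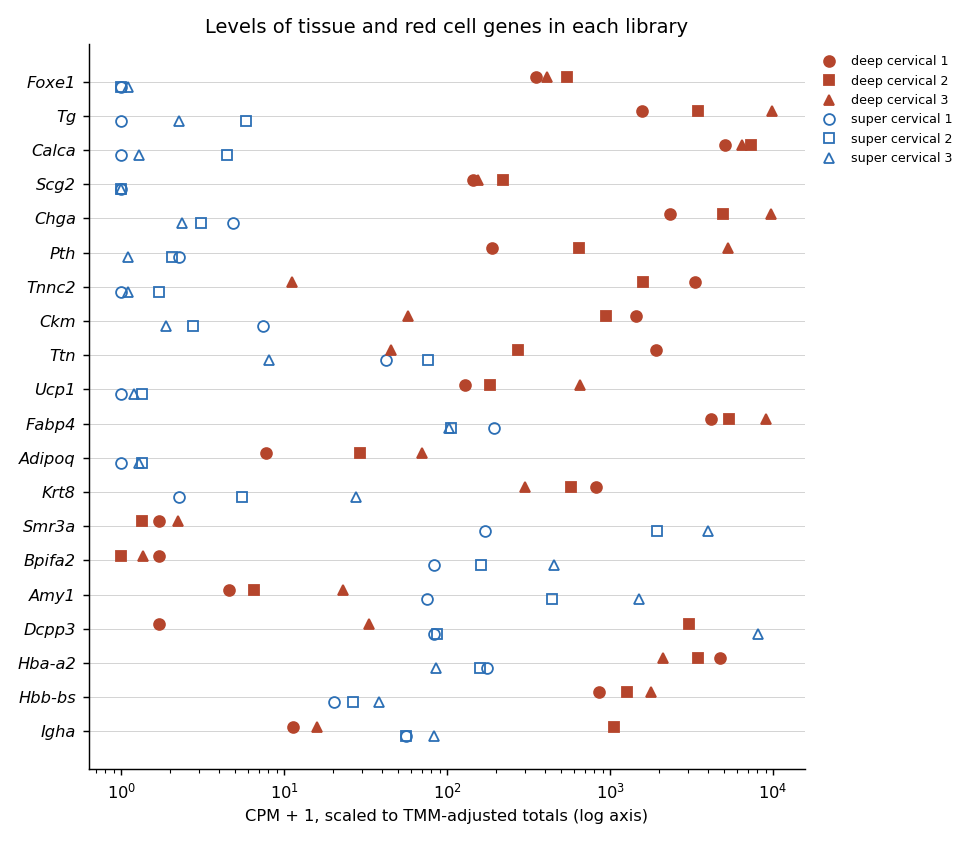
CPM plus 1 on a log axis for 20 genes of the lists of thyroid, C cell, parathyroid, muscle, fat, epithelium, salivary gland, red cells and plasma cells in each of the 6 libraries, chosen after their values were seen. Filled red marks are deep cervical and open blue marks super cervical libraries, with replicates 1, 2 and 3 as circle, square and triangle. Thyroid, C cell and parathyroid genes sit at the left for super and at the right for deep cervical libraries, salivary genes the other way round, and Ttn, Dcpp3 and Igha overlap between the nodes.

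Skeletal muscle genes rose in deep cervical libraries, 24 of 34 tested, and did so mainly in replicates 1 and 2. Among the 24, replicate 1 was the highest deep cervical library for 19 and replicate 3 the lowest for 20. Tnnc2, troponin C of fast fibres, was at 3321, 1579 and 10.1 CPM in deep cervical libraries and at 0, 0.695 and 0.0979 CPM in super cervical ones. Replicate 3 thus held a small part of the level in the other two and was still above every super cervical library. Pooled, 18957 counts stood against 3, a ratio of 2871 with a counting interval of 982 to 13924 (adjusted p = 0.00871). Myh4, the fast myosin heavy chain IIb, was at 1103, 604 and 14.4 CPM against 0, 0.347 and 0 CPM. Ckm, muscle creatine kinase, was at 1447, 941 and 56.6 CPM against 6.38, 1.74 and 0.881 CPM (8.64 ± 1.37, adjusted p = 0.00579). Both repeated the order of Tnnc2, with replicate 3 lowest. The calls of Tnnc2 and Myh4 were lost with limma voom (adjusted p 0.0821 and 0.0533) and with no filter on low counts (0.0943 and 0.0689), where Ckm kept its call. Actn3, the alpha-actinin of fast fibres, had 991 counts against 0, at least 150-fold more, and Tcap, a cap protein of titin, was at 965, 533 and 265 CPM against 2.55, 0 and 0.294 CPM (10.43 ± 1.05, adjusted p = 0.000893). Pvalb, the calcium buffer parvalbumin of fast fibres, reached 4201, 1197 and 9.5 CPM, and its call was lost without deep cervical replicate 1 and without super cervical replicates 1 or 2 (adjusted p 0.0669, 0.0616 and 0.0572). Ttn, the giant spring protein titin, was at 1912, 269 and 44.1 CPM against 40.8, 75.4 and 7.05 CPM, so that the groups overlapped and it was not called (4.18 ± 1.32, adjusted p = 0.055). Tnnc1, the troponin C of slow fibres and heart, was at 30.9, 10.1 and 80.1 CPM against 39.6, 39.6 and 17.5 CPM and was not called either (0.36 ± 0.68, adjusted p = 0.723). The count of 24 fell to 12 without super cervical replicate 2 and to 15 with limma voom, where 1 gene was called in the other direction, as it was with DESeq2. With the 2 genes absent from super cervical libraries at their limits the list's median was 4.56, and 5.53 as fitted.

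Cox8b was 1 of 2 called muscle genes for which replicate 3 was the highest deep cervical library. It encodes a cytochrome oxidase subunit of muscle and of brown fat, and it was at 391, 530 and 1009 CPM in deep cervical libraries against 1.28, 1.04 and 1.57 CPM in super cervical ones. Here replicate 3 was the highest, as for the fat genes described next, and the fold change was 8.87 ± 0.62 (adjusted p = 0.000514).

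Promoters of 4 called genes of the muscle list are shown. Myh4, Atp2a1 and Cox8b had the largest fold changes among called muscle genes whose promoter holds CAGCTG. Their matches were thus fixed by the choice, and Tnnc2 was added by name. Replicate 3 was the lowest deep cervical library for Myh4, Atp2a1 and Tnnc2 and the highest for Cox8b. CAGCTG is in capitals, and Tnnc2 has no match in this window. Of the 24 called muscle genes 18 had a promoter in the table and 12 of the 18 (66.7%) held CAGCTG, against 16.3% of all promoters. The same letters were in 3 of 9 promoters of called fat genes, 2 of 12 of simple epithelium, 0 of 5 of salivary gland and 0 of 3 of thyroid follicle. The sequences are from RefSeq, build GRCm38.p6, each 300 bases long and read along the gene, from chr11:67237562-67237861 on the plus strand for Myh4, and on the minus strand from chr7:126463024-126463323 for Atp2a1 (the calcium pump of fast fibres), chr7:140900397-140900696 for Cox8b and chr2:164779685-164779984 for Tnnc2.
Myh4: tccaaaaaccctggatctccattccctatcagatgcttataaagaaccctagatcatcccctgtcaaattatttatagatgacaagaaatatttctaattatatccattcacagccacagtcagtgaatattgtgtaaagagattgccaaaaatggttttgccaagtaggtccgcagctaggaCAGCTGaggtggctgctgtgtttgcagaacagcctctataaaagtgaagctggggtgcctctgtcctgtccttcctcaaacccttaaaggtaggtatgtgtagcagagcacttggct
Atp2a1: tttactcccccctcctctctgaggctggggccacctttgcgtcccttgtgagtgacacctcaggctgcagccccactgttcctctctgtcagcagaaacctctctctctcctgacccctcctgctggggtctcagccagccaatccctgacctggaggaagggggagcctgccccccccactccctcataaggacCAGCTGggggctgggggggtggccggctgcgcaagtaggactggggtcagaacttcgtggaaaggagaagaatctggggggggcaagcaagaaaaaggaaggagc
Cox8b: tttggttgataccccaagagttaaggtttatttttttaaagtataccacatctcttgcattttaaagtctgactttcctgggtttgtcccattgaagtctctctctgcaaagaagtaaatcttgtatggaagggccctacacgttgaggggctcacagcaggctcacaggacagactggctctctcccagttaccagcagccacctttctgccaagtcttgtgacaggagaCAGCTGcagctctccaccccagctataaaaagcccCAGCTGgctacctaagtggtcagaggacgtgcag
Tnnc2: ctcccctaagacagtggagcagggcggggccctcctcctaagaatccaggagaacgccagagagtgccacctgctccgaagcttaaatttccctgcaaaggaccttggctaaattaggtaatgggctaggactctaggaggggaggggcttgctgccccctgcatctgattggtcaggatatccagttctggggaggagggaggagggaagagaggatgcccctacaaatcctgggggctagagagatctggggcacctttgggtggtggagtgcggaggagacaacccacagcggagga

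Fat genes rose in deep cervical libraries, 15 of 17 tested, and in all 15 replicate 3 was the highest of the deep cervical libraries, the opposite end from muscle. Ucp1, the uncoupling protein that defines brown fat, was at 127, 183 and 650 CPM in deep cervical libraries and at 0, 0.347 and 0.196 CPM in super cervical ones. The super cervical side held 3 counts in all, and the pooled ratio was 2363 with a counting interval of 808 to 11460 (adjusted p = 0.000786). Cidea, a lipid droplet protein of brown fat, followed with 97.7, 107 and 541 CPM against 1.28, 0 and 0.196 CPM. Fabp4, the fatty acid binding protein of fat cells, was at 4155, 5342 and 8999 CPM against 191, 104 and 102 CPM (5.55 ± 0.61, adjusted p = 0.00126). It was the most abundant transcript of the list and the groups did not overlap. Adipoq, the hormone adiponectin, was at 6.75, 28.1 and 68.8 CPM against 0, 0.347 and 0.294 CPM (6.86 ± 1.07, adjusted p = 0.00549), and Cfd, the protease adipsin, at 421, 2686 and 2964 CPM against 58.7, 21.2 and 28.4 CPM (5.84 ± 0.86, adjusted p = 0.00425). Lpl, the lipase that frees fatty acids from lipoproteins, rose by 2.57 ± 0.42 (adjusted p = 0.00644). Pparg, the master factor of fat cells, was at 4.98, 10.8 and 19.1 CPM against 3.83, 5.56 and 0.294 CPM and was not called (2.06 ± 0.97, adjusted p = 0.156). Fat transcripts were not particular to the deep cervical node among the other sites, where Fabp4 reached 3840 CPM and Ucp1 averaged 192 CPM in mediastinal libraries.

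Epithelial genes of simple type rose in deep cervical libraries with 15 of 17 tested, and the other 2, Pigr and Ehf, were higher in super cervical libraries. Krt19, a keratin of ducts and simple epithelia, was at 72.9, 72.3 and 53.8 CPM against 0, 0 and 0.196 CPM (2 counts in all, ratio 411 with a counting interval of 114 to 3394). Krt8, the keratin of simple epithelia, was at 820, 574 and 301 CPM against 1.28, 4.52 and 26.6 CPM. The groups did not overlap, although super cervical replicate 3 held more than the other two (5.53 ± 0.92, adjusted p = 0.00704). Krt7 (5.74 ± 0.55, adjusted p = 0.000787) and the adhesion protein Epcam (4.37 ± 0.55, adjusted p = 0.00212) rose as well. Pigr, the receptor that carries IgA across glandular epithelium, was at 13.2, 28.2 and 5.19 CPM in deep and at 186, 132 and 1649 CPM in super cervical libraries. All 3 super cervical libraries were above the deep cervical ones and replicate 3 was the highest by far (-5.41 ± 1.14, adjusted p = 0.0155), with the call lost without deep cervical replicate 1 and with no filter on low counts (adjusted p 0.0724 and 0.136). Ehf, an epithelial transcription factor, fell by 1.90 on the log2 scale, and that call was lost with plain library totals (adjusted p = 0.0967) and without deep cervical replicates 2 or 3 or super cervical replicates 1 or 2 (adjusted p 0.143, 0.104, 0.0714 and 0.122). The list's rise of 15 was 10, 11 and 9 calls without deep cervical replicate 2, super cervical replicate 1 and super cervical replicate 2.

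Further lists of neighbouring tissue had few genes above the filter. Ager, a receptor abundant in the gas-exchange epithelium of the lung, was at 323, 461 and 390 CPM in deep cervical libraries and at 1.28, 4.86 and 4.99 CPM in super cervical ones (6.53 ± 0.50, adjusted p = 0.000577). The deep cervical libraries were close to each other and no library of the 6 other sites exceeded 6.89 CPM, mediastinal ones included. Calml3, a calmodulin-like protein of stratified epithelium, rose by 6.14 ± 0.55 (adjusted p = 0.000769) and the desmosome protein Dsp by 4.41 ± 0.74 (adjusted p = 0.00743), in a list where 3 of 8 tested genes rose. S100b, a calcium-binding protein of glia that fat and cartilage cells also make, was at 434, 264 and 141 CPM against 2.55, 2.08 and 1.76 CPM (7.12 ± 0.59, adjusted p = 0.000694). Of the nerve and glia list 5 of 10 tested genes rose, among them the myelin protein Pmp22 (3.41 ± 0.50, adjusted p = 0.00425). That count was 3 without deep cervical replicate 2 and 3 without super cervical replicate 2. Sox9, a factor of cartilage and of many ducts and the single tested gene of the cartilage and bone list, was at 579, 260 and 220 CPM against 37, 40.6 and 41.8 CPM (3.14 ± 0.46, adjusted p = 0.00402). The thymus list gave no rise in deep cervical libraries. Its 5 tested genes held 2 calls in the other direction, the T cell genes Themis and Cd8b1, both lost with plain totals (adjusted p 0.0666 and 0.164) and with TMM over the immune lists (0.0764 and 0.0945), and without any one of deep cervical replicates 2 and 3 and super cervical replicates 1 and 2 (Cd8b1 also without the remaining replicates), at adjusted p between 0.0529 and 0.152.

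**Figure D3:**
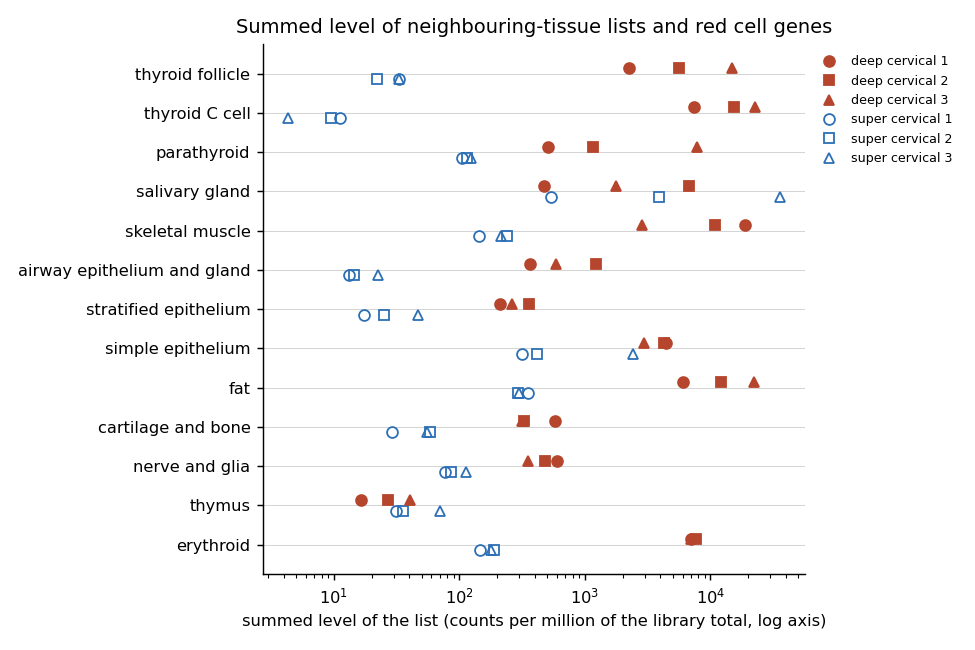
Summed level of all listed genes of each neighbouring tissue and of red cells, in CPM of the plain library total on a log axis, for each of the 6 libraries. For thyroid, C cell, parathyroid, muscle, fat and red cell lists the filled red marks (deep cervical) lie to the right of all open blue marks (super cervical), the salivary gland marks overlap, and deep cervical replicate 3 (triangle) is the lowest red mark for muscle and the highest for fat, thyroid and parathyroid.

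In the salivary gland list 4 of 14 tested genes were higher in super cervical libraries and 1 was higher in deep cervical ones. Of the 48 genes listed, 44 were in the table. Smr3a, a salivary proline-rich protein, was at 0.711, 0.336 and 1.24 CPM in deep cervical libraries and at 170, 1946 and 4001 CPM in super cervical ones. The deep cervical libraries held almost none, and super cervical replicate 1 was well below the other two (-11.21 ± 1.36, adjusted p = 0.00183). Bpifa2, the parotid secretory protein, was at 0.711, 0 and 0.367 CPM against 81.7, 160 and 449 CPM (-9.43 ± 1.0, adjusted p = 0.0011). Wfdc12, a whey acidic protein, was at 0, 1.51 and 3.08 CPM against 35.7, 475 and 875 CPM (-7.99 ± 1.31, adjusted p = 0.00661). Amy1, the salivary amylase, was at 3.55, 5.55 and 21.9 CPM against 74, 441 and 1509 CPM (-5.98 ± 1.18, adjusted p = 0.0125). These 4 genes shared one order, with super cervical replicate 1 lowest and replicate 3 highest, and none of the 16 libraries of other sites exceeded 9 CPM of Amy1 or 3.6 CPM of Bpifa2. The call of Amy1 was lost without deep cervical replicate 2 (adjusted p = 0.0567), and with no filter on low counts neither Amy1 nor Wfdc12 was called (0.146 and 0.0934). Klk1b26, a kallikrein of the submandibular gland, went the other way, at 7.11, 8.91 and 7.25 CPM against 0, 0.347 and 0.489 CPM (4.22 ± 0.70, adjusted p = 0.00671), and kallikreins as close copies share reads. Of kallikreins too low to test, Klk1b22 had 0, 17 and 94 counts against 0, 0 and 0, while Klk1 had 1, 1 and 18 against 3, 32 and 630. With no filter on low counts 5 genes of the list were higher in deep and 6 higher in super cervical libraries.

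Other salivary genes split by library rather than by node. Dcpp3, a demilune cell and parotid protein with near-identical copies that share reads, was at 0.711, 3045 and 32.2 CPM in deep cervical and at 81.7, 86.2 and 8045 CPM in super cervical libraries. One library of each node was high, the groups overlapped and no call was made (-1.42 ± 2.21, adjusted p = 0.666). Dcpp1 was at 1.78, 342 and 13.6 CPM against 123, 1198 and 7209 CPM (-4.58 ± 1.86, adjusted p = 0.111), and without deep cervical replicate 2 it passed at -8.43 (adjusted p = 0.047). Muc19, a gel-forming mucin, had 14127 counts in super cervical replicate 3 and at most 76 in any other of the 6 libraries. In deep cervical replicate 2 the gland proteins Ltf (lactoferrin) and Bpifb1 had 1849 and 453 counts, where the other 5 libraries held at most 17 and 5, and Mucl2 had 3598 counts in deep cervical replicate 3 and at most 148 elsewhere. The count of 4 genes higher in super cervical libraries was 8 without deep cervical replicate 3 and 7 without super cervical replicate 1, where more genes passed the filter, and without super cervical replicate 3, the richest in salivary transcripts, it was again 4. The list's median log2 fold change, -2.27, was 1.84 without that library, so that its direction rested on super cervical replicate 3. Genes higher in deep cervical libraries numbered 4 instead of 1 without deep cervical replicate 1.

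Red cell genes were high in all 3 deep cervical libraries. Of 6 tested 5 rose, and these were 5 of the 11 immune-list genes that rose. Hbb-bs, an adult beta-globin, was at 857, 1261 and 1788 CPM in deep cervical libraries and at 19.1, 25.4 and 36.9 CPM in super cervical ones (5.56 ± 0.52, adjusted p = 0.000786). Hba-a2, an alpha-globin with a near-identical copy that shares its reads, was at 4728, 3444 and 2102 CPM against 175, 158 and 84.9 CPM (4.63 ± 0.56, adjusted p = 0.00179). Both globins separated the groups without overlap, although their orders among deep cervical libraries were opposite. Alas2, the first enzyme of haem synthesis in red cell precursors, was at 14.9, 22.5 and 17.9 CPM against 0, 0 and 0.881 CPM (5.07 ± 0.79, adjusted p = 0.00549). Slc4a1, the anion exchanger of the red cell membrane, had at most 24 counts in any of the 6 libraries, and Epor, the erythropoietin receptor, was not called (-0.07 ± 0.60, adjusted p = 0.959). Summed over the list, red cell genes took 6951 to 7612 CPM of the plain total in deep cervical libraries, 145.9 to 189 in super cervical ones, 1734 to 1957 in mediastinal ones and 6107 to 47060 in spleen.

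Without the red cell list, 214 immune genes were tested, of which 6 were higher in deep and 41 higher in super cervical libraries, with a median log2 fold change of -0.53. This split depends on the scaling. When TMM was computed over the immune lists alone, an alternative chosen after the data had been seen, the median of all genes shifted to 0.73 and the immune and stroma calls became 55 higher in deep and 20 higher in super cervical libraries. With plain library totals the median of all genes shifted to 0.53 and the split was 25 and 21. The neighbouring-tissue calls were 93 and 5, and 87 and 5, under these scalings. Immune genes are therefore given with the scaling that ends their call, where one does. Counts of calls in each list stand beside 10.8% of all genes higher in deep and 8.26% higher in super cervical libraries. A count near these shares says nothing particular of its list.

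T cell genes were lower in deep cervical libraries, with 12 of 17 tested called and 0 in the other direction, against a background of 8.26% higher in super cervical libraries. Cd3d, a chain of the T cell receptor complex, was at 21.3, 37.5 and 20.8 CPM in deep cervical libraries and at 241, 183 and 251 CPM in super cervical ones. The groups lay far apart and each was tight (-3.08 ± 0.38, adjusted p = 0.002). Cd2, an adhesion receptor, was at 26.7, 35.5 and 18.4 CPM against 237, 235 and 165 CPM (-2.99 ± 0.38, adjusted p = 0.00227). Lck, the kinase of T cell receptor signalling, was at 13.2, 22.5 and 17.1 CPM against 126, 148 and 116 CPM (-2.88 ± 0.35, adjusted p = 0.00176), and Bcl11b, a T lineage factor, at 114, 109 and 39.8 CPM against 767, 531 and 490 CPM (-2.77 ± 0.49, adjusted p = 0.00871). The calls of these genes held under every alternative run, the immune scaling included, where Cd3d was at -2.41 (adjusted p = 0.00439). Cd4, the helper T cell coreceptor, was at 2.84, 5.88 and 15.4 CPM against 11.5, 11.1 and 22.1 CPM and was not called (-0.87 ± 0.63, adjusted p = 0.338). The count of 12 was 5 without deep cervical replicate 2, 7 without super cervical replicate 2, 7 with plain totals and 8 with the immune scaling, with a list median of -2.19 in the main test and -1.54 with the immune scaling.

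B cell genes were lower in deep cervical libraries too, with 8 of 15 tested called. Pax5, the factor that maintains B cell identity, was at 182, 98.3 and 120 CPM in deep cervical libraries and at 1244, 1904 and 1042 CPM in super cervical ones (-3.39 ± 0.46, adjusted p = 0.00298). Ms4a1, which encodes CD20, was at 34.5, 27.1 and 17.6 CPM against 281, 167 and 94 CPM (-2.77 ± 0.48, adjusted p = 0.00812). Both separated the groups by a wide gap and were called under every alternative run. Bank1, a signalling scaffold, was at 267, 108 and 63.4 CPM against 1787, 1378 and 502 CPM (-3.07 ± 0.68, adjusted p = 0.0181), and lost its call with the immune scaling and without deep cervical replicate 2 or super cervical replicates 1 or 2 (adjusted p 0.0518, 0.0908, 0.0626 and 0.0639). The IgM heavy chain Ighm, by contrast, was at 99.9, 244 and 389 CPM against 181, 167 and 487 CPM and was not called (-0.19 ± 0.58, adjusted p = 0.832). The 8 calls were 2 without deep cervical replicate 2, 5 without deep cervical replicate 3, 3 without super cervical replicate 1, 3 without super cervical replicate 2, 5 with plain totals and 3 with the immune scaling.

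Antibody genes differed from each other. Of 12 plasma cell genes tested, 2 were called, Ighg2b and Ighg1, both higher in super cervical libraries, against 8.26% of all genes. The kappa light chain Igkc and the joining chain Jchain leaned toward deep cervical libraries and were not called (log2 fold change 0.69 and 1.41). Ighg2b, an IgG heavy chain, was at 4.62, 7.23 and 4.54 CPM in deep and at 28.1, 67.7 and 27.9 CPM in super cervical libraries, with no overlap (-2.92 ± 0.50, adjusted p = 0.00758) and a call that held in every alternative run. Ighg1 was lower in deep cervical libraries as well (-2.95 ± 0.77, adjusted p = 0.0307), though not with plain totals or the immune scaling (adjusted p 0.0683 and 0.0544), nor without deep cervical replicate 3 or super cervical replicates 1 or 2 (adjusted p 0.0946, 0.0663 and 0.122). Igha, the IgA heavy chain, was at 10.3, 1053 and 15 CPM against 54.9, 55.2 and 81.8 CPM. Deep cervical replicate 2 alone was high, the library that also held Ltf and Dcpp3, and the remaining deep cervical libraries were below the super cervical ones (2.48 ± 1.43, adjusted p = 0.233). Without that library Igha was lower in deep cervical libraries, at -2.27 (adjusted p = 0.0417). Top2a, a topoisomerase of dividing cells, was at 42.7, 25.6 and 17.1 CPM against 287, 195 and 82.1 CPM (-2.73 ± 0.54, adjusted p = 0.0127), with its call lost without deep cervical replicate 2 or super cervical replicate 2 (adjusted p 0.0658 and 0.052). Mki67, another gene of dividing cells, was at 16.4, 19.5 and 24.3 CPM against 25.5, 41 and 50.4 CPM and was not called (-0.97 ± 0.38, adjusted p = 0.096).

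**Figure D4:**
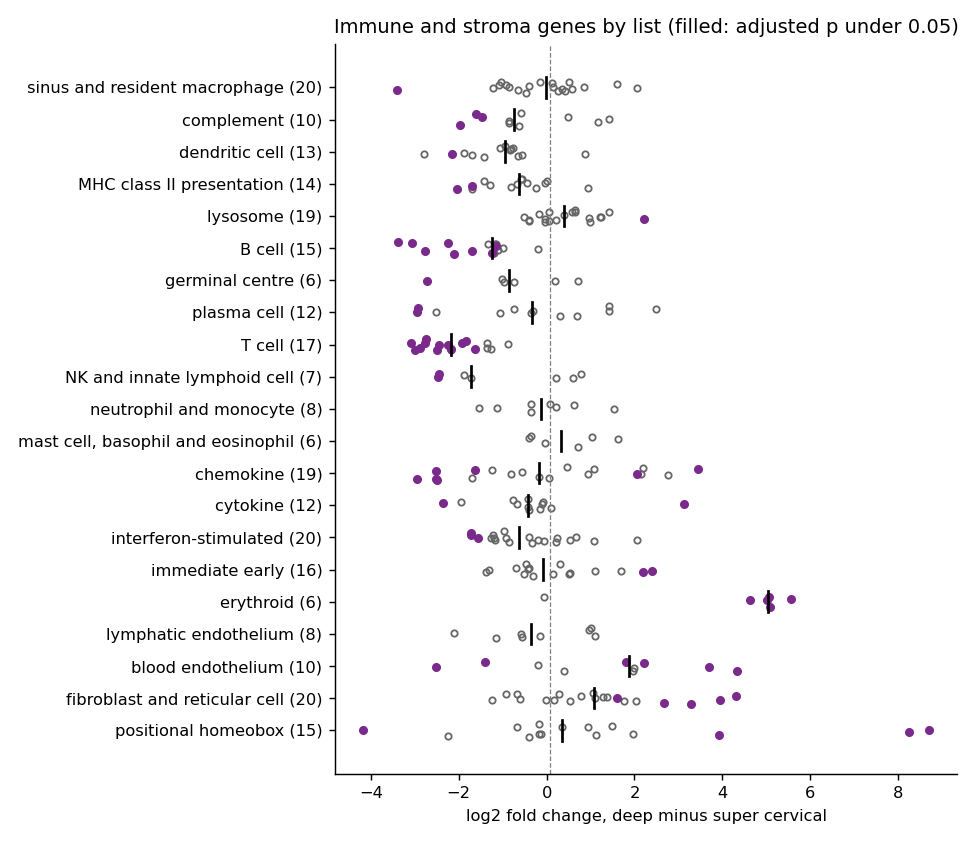
Log2 fold change, deep minus super cervical, of each tested immune and stroma gene by list, filled where the adjusted p was under 0.05, with a black bar at the list median and a dashed line at the median of all genes (0.07). T cell and B cell points lie left of the line, red cell points near 5, macrophage points on both sides of it with 1 filled, and the 2 homeobox points beyond 8 are genes without a count in super cervical libraries.

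Macrophage genes, the intended target of the tag, showed 1 call among 20 tested. Genes not called may still differ, since in simulated counts, where few genes were changed, the test called 24.8% of genes changed by 2 on the log2 scale. Marco, a scavenger receptor of sinus and medullary macrophages, was at 1207, 527 and 740 CPM in deep cervical libraries and at 2700, 2272 and 797 CPM in super cervical ones. Super cervical replicate 3 fell among the deep cervical values and the difference did not pass (-1.22 ± 0.55, adjusted p = 0.144). C1qa, a chain of complement C1q, was at 506, 426 and 552 CPM against 597, 587 and 469 CPM (-0.16 ± 0.34, adjusted p = 0.766), and Csf1r, which receives the growth factor CSF1, at 22.4, 17.7 and 46 CPM against 20.4, 37.9 and 20.6 CPM (0.12 ± 0.47, adjusted p = 0.869). Both overlapped between the nodes. Cd68, a lysosomal membrane protein of macrophages, was at 1.42, 4.54 and 17.5 CPM against 0, 5.56 and 6.07 CPM (0.84 ± 0.94, adjusted p = 0.538). The gene called was Stab2, a hyaluronan receptor of sinus lining cells, at 0, 1.18 and 0.551 CPM against 6.38, 12.2 and 2.54 CPM (-3.41 ± 0.93, adjusted p = 0.0344). That call was lost with plain totals or the immune scaling (adjusted p 0.0538 and 0.0551) and without deep cervical replicates 2 or 3 or super cervical replicates 1 or 2 (0.0852, 0.117, 0.0812 and 0.178). The list summed to 2298 to 3387 CPM of the plain total in deep and 2259 to 3530 in super cervical libraries. With the immune scaling 4 macrophage genes were higher in deep cervical libraries and none lower.

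Genes of complement, antigen presentation and lysosome gave few calls. C4b, Cr2 and C6 were lower in deep cervical libraries among 10 complement genes tested, but none of the 3 was called with plain totals, with the immune scaling, or without deep cervical replicate 2 or super cervical replicates 1 or 2, where adjusted p ran from 0.0573 to 0.172. C4b and C6 were lost without deep cervical replicate 3 too (0.063 and 0.126), and Cr2 without super cervical replicate 3 (0.052). Ciita, the master factor of MHC class II genes, was at 11.7, 14.5 and 15.2 CPM against 42.1, 58.7 and 69.1 CPM (-2.04 ± 0.35, adjusted p = 0.00779). Its call was lost with plain totals and without deep cervical replicate 2 (adjusted p 0.0699 and 0.0584) and held with the immune scaling. The class II chains themselves were not called, with H2-Ab1 at 211, 379 and 626 CPM against 313, 363 and 969 CPM (-0.44 ± 0.56, adjusted p = 0.595) and the invariant chain Cd74 at 65.4, 149 and 731 CPM against 139, 98.7 and 253 CPM (0.94 ± 0.79, adjusted p = 0.406). Ctsl, a lysosomal protease, was at 143, 281 and 292 CPM against 33.2, 52.1 and 67.2 CPM, without overlap (2.21 ± 0.42, adjusted p = 0.0112), and was the single lysosome gene of 19 to be called, while 8 were higher in deep cervical libraries with the immune scaling and 5 without deep cervical replicate 1. The most abundant lysosome gene, Psap (the precursor of saposins), was at 2016, 2056 and 2206 CPM against 2506, 2824 and 1789 CPM and was not called (-0.18 ± 0.41, adjusted p = 0.77). Leaving out deep cervical replicate 2 or super cervical replicate 2 put Ctsl just above the threshold (adjusted p 0.0508 and 0.0622).

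Chemokines moved in both directions, with 5 of 19 tested lower and 2 higher in deep cervical libraries. The calls numbered 1, 4, 2 and 2, all of them lower, without deep cervical replicates 2 and 3 and super cervical replicates 1 and 2, and 5 in each direction without deep cervical replicate 1. With the immune scaling the split turned to 6 higher and 2 lower, and the list's median from -0.17 to 0.52. Ccl8, a chemokine made by macrophages, was at 34.5, 20.5 and 57.6 CPM in deep cervical libraries and at 228, 203 and 203 CPM in super cervical ones. Super cervical libraries were nearly equal and all above the deep cervical ones (-2.49 ± 0.42, adjusted p = 0.0076), and the call held in every alternative run, with -1.88 under the immune scaling (adjusted p = 0.0114). Ccl22, a chemokine of dendritic cells, was at 2.13, 1.51 and 1.19 CPM against 15.3, 9.03 and 12.2 CPM (-2.95 ± 0.55, adjusted p = 0.0101), and 0.0701 without deep cervical replicate 2. Ccl19, which draws T cells and dendritic cells into the node, was at 349, 131 and 101 CPM against 1271, 1114 and 941 CPM (-2.52 ± 0.53, adjusted p = 0.016). Its call was lost with the immune scaling and without deep cervical replicate 2 or super cervical replicates 1 or 2 (adjusted p 0.0645, 0.0935, 0.0557 and 0.0594). Ccl21a, which shares its receptor with Ccl19 and has near-identical copies, was at 31.3, 49.4 and 115 CPM against 51, 51.8 and 239 CPM and was not called (-0.81 ± 0.69, adjusted p = 0.411). Pf4, made by platelets and some macrophages, rose by 2.06 ± 0.48 (adjusted p = 0.0212) and Cxcl14, made by epithelium and fibroblasts, by 3.45 ± 0.94 (adjusted p = 0.0344), both lost without deep cervical replicates 2 or 3 or super cervical replicates 1 or 2 at adjusted p from 0.0632 to 0.114. Among 12 cytokine genes Ltb, the lymphotoxin chain that organises lymphoid tissue, was at 473, 400 and 176 CPM against 1903, 1979 and 1497 CPM (-2.36 ± 0.48, adjusted p = 0.0138), with the call lost with the immune scaling and without deep cervical replicate 2 or super cervical replicate 2 (adjusted p 0.0614, 0.0757 and 0.0594). Il34, a growth factor for macrophages made by epithelium and stroma, was at 20.6, 23.9 and 14.4 CPM against 1.28, 0 and 4.11 CPM, higher in deep cervical libraries (3.14 ± 0.85, adjusted p = 0.0346). That call was lost without deep cervical replicates 2 or 3 or super cervical replicates 1 or 2 (adjusted p 0.116, 0.0588, 0.0973 and 0.0633).

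Of 16 immediate early genes, which respond within minutes to stress or growth signals, Jun and Klf4 rose. That count, 2 of 16, is near the 10.8% of all genes that were higher in deep cervical libraries. Jun was at 57.2, 53.8 and 59.9 CPM in deep cervical libraries and at 12.8, 8.69 and 11.6 CPM in super cervical ones, with both groups tight and far apart (2.39 ± 0.34, adjusted p = 0.0038) and the call held in every alternative run. Its partner Fos was at 4.27, 1.85 and 1.51 CPM against 16.6, 3.47 and 1.57 CPM, overlapping and not called (-1.31 ± 0.95, adjusted p = 0.336). Klf4 lost its call without deep cervical replicate 2 or super cervical replicate 2 (adjusted p 0.0524 and 0.0659). Interferon-stimulated genes had 3 of 20 tested lower in deep cervical libraries, among them Zbp1 and Gbp4, neither of which was called with plain totals, with the immune scaling, with no filter, or without deep cervical replicate 2, super cervical replicate 1 or super cervical replicate 2 (adjusted p from 0.0563 to 0.175). Zbp1 was lost without deep cervical replicate 3 or super cervical replicate 3 as well (0.0926 and 0.0698), and Gbp4 without the former (0.122). NK and innate lymphoid genes had Cxcr6 and Klrd1 lower among 7 tested, neither of them called with plain totals (adjusted p 0.0522 and 0.0607) or without deep cervical replicate 2 (0.0562 and 0.0661), and Klrd1 not without super cervical replicate 2 (0.0546). No gene was called among 8 of neutrophils and monocytes, 6 of mast cells, basophils and eosinophils and 8 of lymphatic endothelium.

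Stroma genes rose in part. In blood endothelium 4 of 10 tested genes were higher and 2 lower in deep cervical libraries. The higher ones numbered 2 without deep cervical replicate 2, 1 without deep cervical replicate 3 and 1 without super cervical replicate 2. Emcn, a sialomucin of veins and capillaries, was at 20.6, 38 and 45.3 CPM against 0, 2.43 and 3.82 CPM (3.69 ± 0.64, adjusted p = 0.00809), without overlap and in every alternative run. Kdr, the receptor VEGFR2, rose by 1.80 ± 0.38 (adjusted p = 0.0161), with the call lost without deep cervical replicates 2 or 3 or super cervical replicate 2 (adjusted p 0.0661, 0.0557 and 0.0682). Madcam1, the addressin that lymphocytes use to enter mucosal nodes, went the other way, at 4.62, 3.19 and 5.51 CPM against 24.2, 24 and 28 CPM (-2.51 ± 0.42, adjusted p = 0.00719). Its call was lost without deep cervical replicate 2 (adjusted p = 0.0557) and held with the immune scaling. Of 20 fibroblast and reticular cell genes 5 rose, and 13 with the immune scaling, led by the matrix proteins Fbln1 and Dpt, and Pi16, a marker of fibroblasts around vessels, was at 37.7, 40 and 28.9 CPM against 3.83, 4.52 and 2.84 CPM (3.29 ± 0.43, adjusted p = 0.00235). Among these 5, Pi16 alone was still called without super cervical replicate 2, where Fbln1, Dpt, Cd34 and Dcn had adjusted p 0.0511, 0.0584, 0.0526 and 0.0966, and Dcn was also lost without deep cervical replicate 2 or super cervical replicate 1 (0.106 and 0.076). Collagen genes Col1a1 and Col1a2 were not called (1.36 ± 0.47 and 0.53 ± 0.31, adjusted p 0.0717 and 0.241).

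Homeobox genes, which keep a record of position along the body, differed in 4 of 15 tested. Hoxa5 was at 11, 15 and 18.8 CPM in deep cervical libraries and at 0, 0.695 and 1.37 CPM in super cervical ones (3.92 ± 0.66, adjusted p = 0.0073). Hoxb6 and Hoxb7 had 181 and 202 counts in deep cervical libraries and none in super cervical ones, at least 27.4-fold and 30.6-fold more. The 3 genes separated the groups and were called in every alternative run. Their neighbours in the clusters were not all alike, since Hoxb4 was at 60.1, 35.6 and 29.7 CPM against 31.9, 45.9 and 20.6 CPM (0.35 ± 0.43, adjusted p = 0.576) and Hoxa7 was not called either (-0.40 ± 0.56, adjusted p = 0.623). Pitx1, a factor of the hindlimb and of the first pharyngeal arch, was at 3.2, 2.69 and 0.459 CPM against 8.93, 13.2 and 75.7 CPM (-4.17 ± 1.0, adjusted p = 0.0239). It was highest in super cervical replicate 3, the library with the most salivary transcripts, and its call was lost without that library (adjusted p = 0.0622) and without deep cervical replicates 2 or 3 (0.0812 and 0.0627), and it did not pass against a fold of 2 (0.053). Whether salivary or other tissue carried Pitx1 was not tested. Nkx2-3, a factor of splenic and gut stroma, had 352 counts in super cervical replicate 3, 4 in deep cervical replicate 3 and 0 in the other 4 libraries.

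Among genes of no list, 1340 were higher in deep and 1058 higher in super cervical libraries, of 13020 tested (18.4% called). The 10 leading genes in deep cervical libraries had no count in super cervical ones. Ckmt2, mitochondrial creatine kinase of striated muscle, was at 57.2, 86.6 and 55 CPM in deep cervical libraries, at least 284-fold above the super cervical limit. Igfn1, a muscle protein of the Z disc, was at 52.6, 66.1 and 66.2 CPM and Fabp3, the fatty acid binding protein of muscle and heart, at 37.7, 48.1 and 99.6 CPM. These levels stayed in the same range in replicate 3, unlike Tnnc2 or Myh4. The others were Actc1 (cardiac actin), Eef1a2 (an elongation factor of muscle and neurons), Cdh16 (a cadherin of kidney and thyroid), Rhcg (an ammonium transporter of epithelia), Fxyd4 (a regulator of the sodium pump), Cryba2 (a crystallin) and AU021092, at least 90.1-fold to 272-fold above that limit. Actc1 was the exception in stability, at 4.27, 10.3 and 77.2 CPM, with its call lost without super cervical replicates 1 or 2 (adjusted p 0.0518 and 0.059).

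Dnase1, Bglap3, Chia1 and Cst5 led the genes of no list that were higher in super cervical libraries. Dnase1, a secreted nuclease, was at 0.355, 2.52 and 0.275 CPM in deep and at 80.4, 794 and 879 CPM in super cervical libraries (-9.16 ± 1.27, adjusted p = 0.00334). Bglap3, of the osteocalcin family, had 0 counts against 777, at least 570.03-fold less, and Chia1, an acidic chitinase, 2 counts against 1273, a ratio of 1401 with a counting interval of 387 to 11580. Bglap3, like Cst5, a cystatin (-8.36 ± 1.35, adjusted p = 0.00625), was lowest in super cervical replicate 1 and highest in replicate 3, as Smr3a was. Rasgrp1, a Ras activator of T cells, was at 1.78, 0.841 and 1.51 CPM against 37, 27.4 and 19.8 CPM (-4.33 ± 0.52, adjusted p = 0.00174), and AI504432 at 4.62, 1.01 and 2.62 CPM against 88.1, 93.1 and 32.6 CPM (-4.76 ± 0.65, adjusted p = 0.00308). The olfactory receptor genes Or4p7 and Or5m8, the RNA-binding protein Khdrbs2 and the growth factor binding protein Igfbp2 completed the 10. Each lost its call without deep cervical replicate 3 (adjusted p 0.0946, 0.0679, 0.0637 and 0.0648 in the order Or4p7, Or5m8, Khdrbs2, Igfbp2) and without super cervical replicate 1 (0.0546, 0.0609, 0.0706 and 0.0675). Leaving out deep cervical replicate 2 ended the calls of Or4p7, Or5m8 and Khdrbs2 (0.107, 0.0852 and 0.0908), leaving out super cervical replicate 2 those of Or4p7, Or5m8 and Igfbp2 (0.166, 0.0969 and 0.0556), and Or4p7 was lost without deep cervical replicate 1 as well (0.0621).

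Set beside the other sites, the deep cervical node was the low one for lymphocytes and the super cervical node was not a high one. T cell genes summed to 274.1 to 460.6 CPM of the plain total in deep cervical libraries, 1107 to 1971 in super cervical ones, 573.7 to 1984 in the other 5 node sites with a library of at least 1000000 counts, and 135.1 to 308.4 in spleen. B cell genes summed to 905.2 to 1341 CPM in deep cervical, 2602 to 3709 in super cervical and 2405 to 5172 in the 16 libraries of the other 6 sites. Chemokine genes summed to 598.2 to 923.6 CPM in deep cervical, 1210 to 1922 in super cervical and 1080 to 3556 in other node libraries. Fat genes went the other way, at 295.8 to 355.2 CPM in super cervical libraries, 6069 to 22250 in deep cervical and 1254 to 8881 in other nodes, so that super cervical libraries were below every other node library for fat. No test was made on these sums, which move with the share of counts that neighbouring tissue takes. The listed genes of those tissues alone took 4.18% to 7.66% in deep cervical and 0.167% to 3.93% in super cervical libraries. Their unlisted genes add to that share by an amount not known here. The part of neighbouring tissue in the lower lymphocyte sums was not tested.

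**Figure D5:**
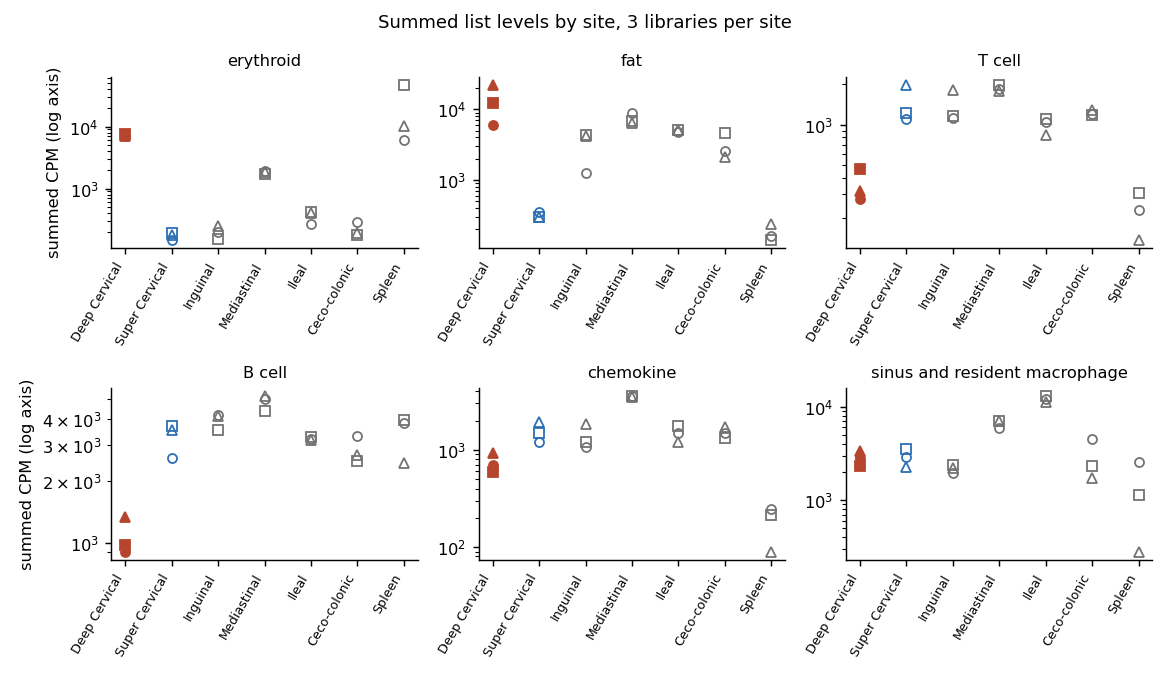
Summed level of 6 gene lists, in CPM of the plain library total on log axes, by site for the sites with 3 libraries of at least 1000000 counts, with replicates 1, 2 and 3 as circle, square and triangle. Deep cervical libraries (red) are the lowest of the nodes for T cell and B cell genes and stand with mediastinal node and spleen above the other sites for red cell genes, super cervical libraries (blue) are the lowest of the nodes for fat, and the macrophage sums of both cervical nodes overlap.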

How the data were processed

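Ribosome-bound RNA was pulled down from each node by the haemagglutinin tag and sequenced as poly(A) libraries, per the labels' protocols. The authors deposited 1 table of estimated counts per gene, of 56351 features, which holds values that need not be whole. The submitters' processing notes name kallisto, edgeR and limma and the builds GRCm39 and mm10, with no versions or roles, so the build behind the counts is not given in the sources used here. Whether strand was used is not stated, so reads of overlapping and antisense genes are uncertain.

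The estimated counts were rounded to whole numbers and tests used edgeR 4.0.16 (R 4.3.3) on these 6 libraries alone. The filter was filterByExpr (a minimum count of 10 and a minimum total of 15), totals were scaled by TMM, and the robust quasi-likelihood test gave Benjamini-Hochberg adjusted p over all 13440 genes, with 0.05 as the threshold. CPM are relative to the TMM-adjusted total, except where the plain total is named, and levels at other sites were scaled over the 22 libraries of 1000000 counts or more. Errors beside log2 fold changes are standard errors. A gene with no count in a group was set against 3 counts over that group, and a gene with 1 to 3 counts is given as a ratio with a 95% interval. Intervals and floors cover counting error only. Counts between replicates differed by more than sampling noise, with chi-square per degree of freedom of 41.2 to 136, so no library was taken as a copy.

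The node and the gene lists were chosen with earlier results of these data known. Genes were named by a rule: Marco, Csf1r, Adgre1, Cd68, Rpl22 and Siglec1 in any case, then, of genes called with at least 10 CPM in the higher group and no overlap, the 10 with the largest change in each direction in each of 3 classes, and up to 4 members of highest CPM in each list. Not all genes the rule gives are described. Predicted genes and receptor segments were left out. Other genes named were chosen after their values were seen, and a few genes are not reported here. Alternatives used DESeq2 1.42.0, limma 3.58.1, other scalings, filters and sets of libraries, and each library was left out in turn. The test was tried on simulated counts first. There it called 25 of 101 genes changed by 2 on the log2 scale (24.8%), 63 of 79 changed by 3 (79.7%) and 5 unchanged genes. No other genes were changed there, whereas 2557 were called in the real counts. The adjusted p depends on how many genes change, so these shares may not carry over. A gene not called may therefore still differ between the nodes. Promoters were read from the RefSeq table of GRCm38.p6.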

Additional observations from a re-analysis of the deposited data

How the results depend on the processing

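The number of genes called over all genes, 2557, was 3911 with DESeq2, 3973 with no filter on low counts, 5820 with a fit over libraries of 1000000 counts or more, 882 against a fold of 2 (73.6% of them higher in deep cervical libraries, against 56.6%) and 3871 with TMM over the immune lists (91.6% higher in deep cervical libraries). It ran from 544 to 4679 when each library was left out in turn. Plain totals gave 2004 calls, 75.7% of them higher in deep cervical libraries. Immune and stroma calls, 67, were 107 with the fit over libraries of 1000000 counts or more, 34 against a fold of 2, and 26 to 95 with each library left out. Neighbouring-tissue calls, 91, were 65 to 100 with each library left out and within 1.5 times of 91 in all other alternatives. The log2 fold change of Igha, 2.48, was -2.27 without deep cervical replicate 2 and ran from -2.27 to 3.10 with each library left out. Of 179 named or listed genes called, 87 were called in the same direction in every alternative. The causes of these changes were not tested.

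The labels do not say whether replicate numbers pair the nodes. The Y-linked Ddx3y, too low to test, had 187 counts in deep cervical replicate 1 and 2 in super cervical replicate 1. It had 2 in deep cervical replicate 2 and 102 in super cervical replicate 2. Same-numbered libraries 1 and 2 were thus unlike in this gene, while replicate 3 held 11 and 18 counts. The numbers were therefore not taken to pair the nodes. Deviations of same-numbered libraries correlated at 0.376, -0.131 and 0.531, and those of libraries with unlike numbers at -0.612 to 0.376. Depth rose from replicate 1 to 3 in both nodes, and its part in these correlations was not tested. The main test took no account of any pairing. With the replicate number as a block 5451 genes were called in all, 116 of immune and stroma lists and 90 of neighbouring tissues, and 14 named or listed genes lost their call, among them Pigr (adjusted p = 0.241), Pitx1 (0.229), Krt8 (0.0991) and Cfd (0.107). Libraries of 1283757 counts set the limit, where 3 counts are 2.34 CPM.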

Other observations

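Mitochondrially encoded transcripts leaned toward deep cervical libraries, where the 9 tested genes had a median of 0.8 on the log2 scale and mt-Co2, a cytochrome oxidase subunit, was the 1 gene called. It was at 573, 229 and 464 CPM in deep cervical and at 167, 112 and 137 CPM in super cervical libraries (1.61 ± 0.42, edgeR's adjusted p = 0.0313). The groups did not overlap, and the call was lost without deep cervical replicate 3 or super cervical replicates 1 or 2 (adjusted p 0.0612, 0.0766 and 0.138).

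Both X-linked and Y-linked transcripts were found in both nodes, and none of 4 tested was called. Xist, the noncoding RNA of the inactive X chromosome, was at 20.3, 25.4 and 37.9 CPM in deep and at 57.4, 42.4 and 148 CPM in super cervical libraries. Uty, a demethylase of the Y chromosome, was at 34.1, 14.5 and 1.1 CPM against 144, 141 and 67.9 CPM, and Eif2s3y, a Y-linked initiation factor, at 18.5, 0 and 0.184 CPM against 7.66, 30.6 and 0.587 CPM. Eif2s3y was thus near or at 0 in 3 libraries of the 6, in which Xist was present. Ddx3y, another Y-linked gene and too low to test, had 187, 2 and 11 counts in deep cervical libraries. In super cervical libraries it had 2, 102 and 18 counts. Y-linked transcripts thus differed between libraries of the same node, and no test took account of this.

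Ager was at 323 to 461 CPM in deep cervical libraries, in a list where 5 of 19 genes passed the filter and 3 were called. Of the other called genes, Tppp3, a tubulin-binding protein of ciliated and other cells, rose by 3.35 ± 0.56 (adjusted p = 0.00725), and Dynlrb2, a dynein chain of cilia, had no count in super cervical libraries, at least 22.6-fold less than in deep cervical ones. Scgb3a1, a secretoglobin of airway glands, was at 20.3, 384 and 1.06 CPM in deep and at 0, 8.34 and 0.294 CPM in super cervical libraries and was not called (adjusted p = 0.0827). It was highest in deep cervical replicate 2, the library with the highest Ltf, Bpifb1 and Igha.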
